A study of Mus musculus with 4 samples.

Results

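Heat shock proteins and chaperones were examined in the left hippocampus of male mice at 12 months of age. They comprised 77 genes with 105 probe sets, among 8251 genes and 12422 probe sets on the array, the manufacturer's controls left out. A probe set belonged to them when its only gene symbol named an Hsp70, Hsp110, Hsp90, Hsp60, Hsp10 or small heat shock protein, a J-domain protein, a subunit of the cytosolic chaperonin, a protein disulfide isomerase, an FK506-binding protein, calreticulin, calnexin, or 1 of the stress regulators Xbp1, Atf4, Ddit3 and Herpud1. The choice used symbols only and no measured value, but it was made with earlier results of these data known. The APPSw group was 2 arrays of Tg2576 mice, which overexpress amyloid precursor protein carrying the Swedish mutation. The Control group was 2 arrays of nontransgenic C57B6/SJL mice. Both groups were male, of the same age and untreated as far as the labels say. In this line a prion protein promoter drives the human transgene, so its expression is not limited to a single brain cell type.

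Chaperones bind unfolded stretches of other proteins and keep them from aggregating while they fold. In the cytosol, Hsp70 and its J-domain partners hand clients to Hsp90 and to the ring-shaped chaperonin, and the transcription factor HSF1 induces many of these genes when unfolded protein accumulates. The endoplasmic reticulum (ER) has its own set of chaperones, which the sensors ATF6, IRE1 and PERK induce through the unfolded protein response. Chaperones of these kinds are studied in Alzheimer models because several of them bind amyloid peptide or tau.

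Values are MAS 5.0 signals on a linear scale, scaled by the authors to 2500. Array medians over the non-control probe sets were 1033.4 and 1013 on the APPSw arrays, and 926 and 988 on the Control arrays. Of 14 markers of hippocampal principal neurons, 13 had a probe set and 12 passed the signal filter. Their lowest signal by the brightest probe set was 258, for Prox1, and none was at 0. The summed signal of the 13 was 68995 and 54661 in APPSw mice, against 88629 and 77046 in Control mice. Of the 12, 11 had a log2 difference below 0, against 47.3% of all probe sets that passed the filter. The summed signal of choroid plexus markers was 120347 and 13784 in APPSw mice, against 21768 and 13015 in Control mice, so APPSw 1 stood apart. Among the 10 choroid plexus genes with a probe set, the lowest signal was 17.7 and none was at 0. All 7 markers of meninges and fibroblasts had a log2 difference above 0, against 52.7% of all probe sets that passed the filter, with a median of 0.65. For 6 of the 7 both APPSw arrays lay above both Control arrays (85.7%, against 22.2% of all that passed). Their summed signal was 58889 and 34973 in APPSw mice, against 25451 and 30329.6 in Control mice, again highest on APPSw 1, and the lowest single signal was 886. Whether any of these marker lists has a part in the chaperone values was not tested. In whole tissue, fewer cells of a type and less RNA per cell cannot be told apart.

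Of the 105 probe sets, 84 of 68 genes passed the filter, a geometric mean signal of 565, and were tested with limma in a fit over all 7453 probe sets that passed it. No chaperone probe set passed an adjusted p of 0.05, with 0 called higher and 0 lower, and the background over all probe sets was 0.00% in each direction. At an unadjusted p under 0.05 there were 5 of 84, or 5.95%, against 8.05% of all probe sets tested. Of these, 3 were lower in APPSw mice (3.57%, against 3.33% of all), those of Fkbp1a, Hspa4l and Hsph1. The other 2 were higher (2.38%, against 4.72% of all), 1 probe set each of Hspa4 and Dnajc3. Every log2 difference below is APPSw minus Control, with limma's moderated SE. Adjusted p-values come from limma, corrected for all 7453 probe sets by Benjamini-Hochberg, and the lowest among the chaperones was 0.599. With 2 arrays against 2, an exact two-sided permutation test cannot give a p below 0.333.

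The balance of directions leaned towards lower values in APPSw mice. A log2 difference below 0 was found for 52 of the 84 probe sets, or 61.9%, against a background of 47.3%. It was above 0 for 32, or 38.1%, against 52.7% of all tested. The arrays of the groups did not overlap for 35 probe sets, or 41.7%, against 41.2% of all tested. In 21 of these both APPSw arrays were the lower, or 25.0%, against 19.0% of all tested. In 14 both were the higher, or 16.7%, against 22.2% of all tested. The median log2 difference was -0.05 over the 84, beside 0.02 over all 7453 probe sets. By array, 52 of the 84 lay below the Control mean on APPSw 1 and 42 on APPSw 2. Without APPSw 1 the median was 0.01 and 42 of 84 lay below 0, or 50%, against 47.3% of all tested. Without Control 1 the median was -0.026 and 45 lay below 0, or 53.6%, against 48.3% of all tested. Without APPSw 2 the median was -0.094, with 52 below 0.

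**Figure D1:**
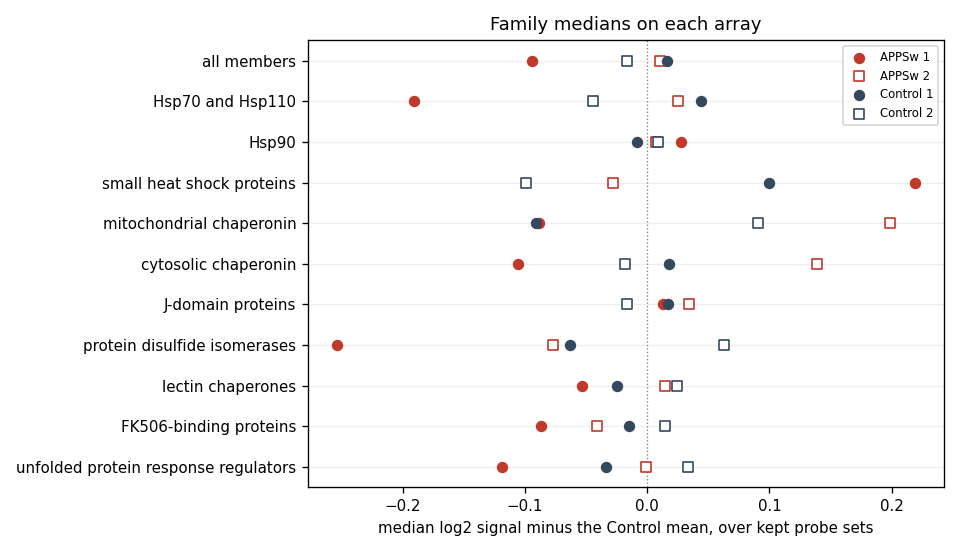
Median log2 signal minus the Control mean over the kept probe sets of each family, for each of the 4 arrays (circles, replicate 1, and squares, replicate 2, with APPSw in red and Control in blue). APPSw 1 lies lowest for all chaperones together at -0.09, for Hsp70 and Hsp110 at -0.19 and for protein disulfide isomerases at -0.25, while APPSw 2 lies at 0.01, 0.03 and -0.08.

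**Figure D2:**
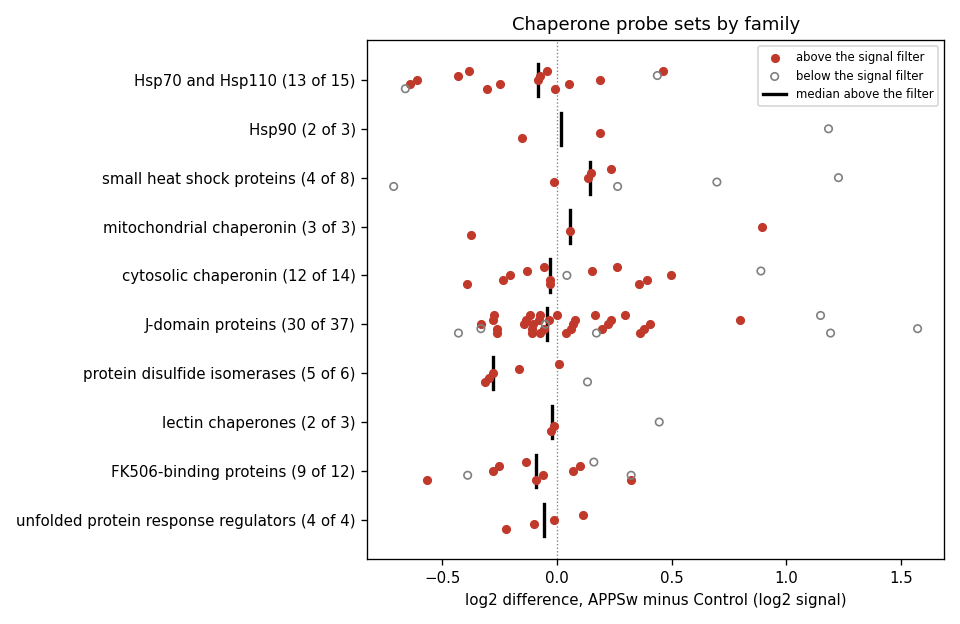
Log2 difference of every chaperone probe set by family, APPSw minus Control, on the horizontal axis. Filled points passed the signal filter, open points did not, and bars mark the median of the filled points, and brackets give those that passed of all. The 5 probe sets with differences above 1 are all open points.

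Among the Hsp70 and Hsp110 proteins, the ATP-driven chaperones that hold nascent and misfolded chains, 13 probe sets of 10 genes were tested. Of these, 10 had a difference below 0 and 3 above 0, against 47.3% and 52.7% of all probe sets tested. The median was -0.08. For 5 of the 13 the APPSw arrays were both below the Control arrays (38.5%, against 19.0% of all probe sets tested). For 1 they were both above (7.69%, against 22.2%). Without APPSw 1 the median was 0.025, and 6 of the 13 lay below the Control mean on APPSw 2, against 11 on APPSw 1. The 3 probe sets above 0 all belonged to Hspa4, and with the probe sets of each gene averaged the median was -0.28.

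Hsph1, an Hsp110 nucleotide exchange factor for Hsp70, had signals of 15630.1 and 15749 in APPSw mice, against 21158 and 21152 in Control mice. The replicates of each group were close and the groups were well apart. The log2 difference was -0.43 (SE 0.17, adjusted p = 0.61 by limma), and it stayed between -0.44 and -0.43 with any array left out.

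Hspa4l, another Hsp110 protein, had signals of 3249 and 4181 in APPSw mice, against 5309 and 5970 in Control mice. The groups did not overlap, with a log2 difference of -0.61 (SE 0.20, adjusted p = 0.60 by limma). Hspa4, the founding Hsp110 relative of these genes, had 4 tested probe sets that did not share a sign. They gave differences of 0.19, 0.46, 0.05 and -0.08 (SE 0.20, 0.17, 0.19 and 0.18). The brightest had signals of 17243 and 22156 in APPSw mice, against 18089.6 and 16296 in Control mice, so the groups overlapped, and without APPSw 2 its difference was 0.0061. The second, the one with an unadjusted p under 0.05, had signals of 1239 and 1310 in APPSw mice, against 957 and 893 in Control mice. Another Hspa4 probe set was below the filter.

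The stress-inducible Hsp70 genes Hspa1a and Hspa1b are nearly identical in sequence, so the array may not separate their transcripts. Hspa1b had signals of 1382 and 2281 in APPSw mice, against 2844 and 2694 in Control mice, a log2 difference of -0.64 (SE 0.27, adjusted p = 0.61 by limma). The 2 APPSw arrays differed widely, and without APPSw 1 the difference was -0.28. Hspa1a had signals of 2781 and 4895 in APPSw mice, against 3276 and 4614 in Control mice. These overlapped, and the log2 difference of -0.08 (SE 0.33) was 0.33 without APPSw 1 and 0.17 without Control 2. For both genes APPSw 1 gave the lowest of the 4 signals.

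Hspa8, the constitutive cytosolic Hsp70 that also uncoats clathrin vesicles, had signals of 23527 and 27021 in APPSw mice, against 26611 and 25320 in Control mice. The log2 difference was -0.04 (SE 0.18), and 0.06 without APPSw 1. Hspa2, an Hsp70 of testis and brain, had signals of 2424 and 2983 in APPSw mice, against 3651 and 3379 in Control mice, a difference of -0.39 (SE 0.19). Hspa2 was named after its values were seen, as were all other genes named below outside the naming rule. Hspa14, a ribosome-associated Hsp70, had a difference of -0.25 (SE 0.22) with overlapping groups. Hspa1l, a testis-enriched Hsp70, was below the filter.

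**Figure D3:**
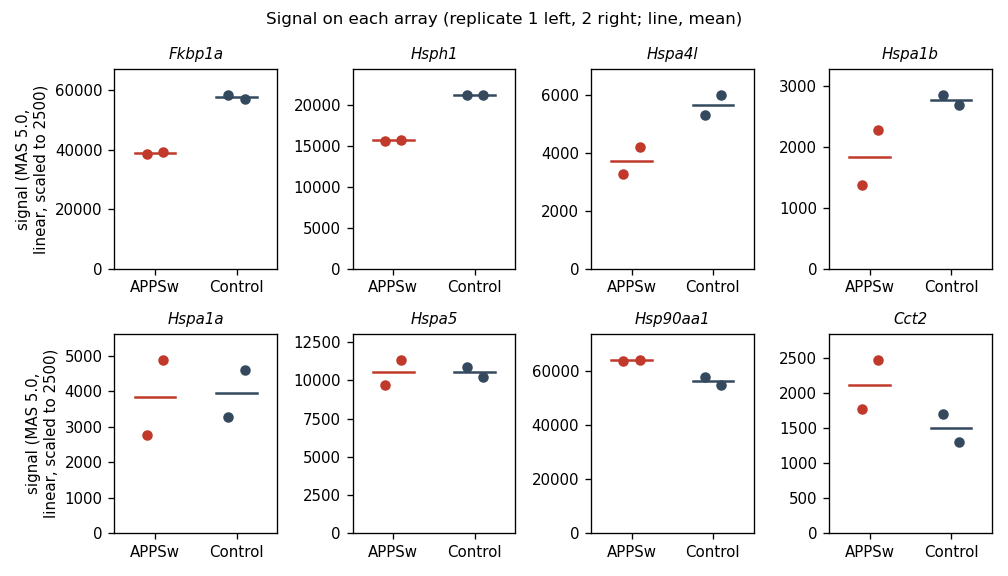
Signal on each array (linear scale from 0) for 8 genes by their brightest kept probe set, APPSw in red and Control in blue, with a line at each mean. Fkbp1a, Hsph1, Hspa4l and Hspa1b have both APPSw arrays below both Control arrays, Hsp90aa1 and Cct2 have both above, and Hspa1a and Hspa5 overlap.

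Hsp90 was measured for 2 genes, and they lay on opposite sides of 0. Hsp90aa1, the inducible cytosolic Hsp90, had signals of 63694 and 64096 in APPSw mice, against 57614 and 54731 in Control mice. Both APPSw arrays were higher, by a log2 difference of 0.19 (SE 0.17, adjusted p = 0.76 by limma), which was 0.15 to 0.22 with any array left out. A dim second Hsp90aa1 probe set, with signals of 173 and 151 in APPSw mice against 110.3 and 45.8 in Control mice, was not tested. Hsp90ab1, the constitutive cytosolic form, was not analysed here.

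Hsp90b1, the Hsp90 of the ER, had signals of 11633 and 11233 in APPSw mice, against 12225 and 13179 in Control mice. Both APPSw arrays were lower, by -0.15 (SE 0.17, adjusted p = 0.81 by limma), and by -0.097 without Control 2. Hspa5, the ER Hsp70 also called BiP, had signals of 9698 and 11347 in APPSw mice, against 10892 and 10246 in Control mice. These overlapped, and the difference of -0.01 (SE 0.18) was 0.10 without APPSw 1, 0.03 without Control 1 and 0.01 after quantile normalization.

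The protein disulfide isomerases, which form and rearrange disulfide bonds in the ER, had a median of -0.28 over 5 probe sets of 3 genes. For 3 of the 5 the APPSw arrays were below both Control arrays (60%, against 19.0% of all probe sets tested). For 0 they were above both (against 22.2%). The 3 were the Pdia4 probe set and Pdia6 probe sets. Without APPSw 1 the median was -0.08, and with the probe sets of each gene averaged it was -0.19. Pdia4, which has several thioredoxin domains, had signals of 1869.9 and 1764 in APPSw mice, against 2092 and 2376 in Control mice. The log2 difference was -0.30 (SE 0.18, adjusted p = 0.65 by limma). Pdia6, a partner of BiP, had signals of 3044 and 2796 in APPSw mice, against 3221 and 3897 in Control mice, by its brightest probe set. This probe set gave -0.28 (SE 0.19, adjusted p = 0.68 by limma), and -0.14 without Control 2, while its others gave -0.31 and 0.0093. Pdia3, the isomerase that works with calnexin and calreticulin on glycoproteins, had signals of 2509.8 and 3308 in APPSw mice, against 4258 and 2449 in Control mice. The wide spread within each group left Pdia3 overlapping, at -0.16 (SE 0.31).

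The lectin chaperones hold glycoproteins during folding. Canx, calnexin, had signals of 3239 and 3798 in APPSw mice, against 3345 and 3745 in Control mice, a log2 difference of -0.01 (SE 0.19). The other Canx probe set gave -0.03 (SE 0.17), and the groups overlapped for both. Without APPSw 1 the brighter probe set gave 0.10, and without Control 2 it gave 0.07. Calr, calreticulin, was below the filter, with signals of 201 and 205 in APPSw mice against 198 and 112 in Control mice, and was not tested.

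The 4 regulators of the unfolded protein response had a median of -0.05, which was -0.0012 without APPSw 1 and -0.12 without APPSw 2. Xbp1, whose transcript IRE1 splices, had signals of 3288 and 4034 in APPSw mice, against 3805 and 3995 in Control mice. The groups overlapped, and the log2 difference of -0.10 (SE 0.19) was 0.05 without APPSw 1. The array signal does not separate the spliced from the unspliced form. Atf4, the factor translated when PERK phosphorylates eIF2-alpha, had signals of 10729 and 10146 in APPSw mice, against 10869 and 10172 in Control mice, a difference of -0.01 (SE 0.17). It was 0.02 after quantile normalization, 0.03 without APPSw 2 and 0.04 without Control 1. Ddit3, the pro-apoptotic factor CHOP, had signals of 1779 and 2063 in APPSw mice, against 1638 and 1911 in Control mice, a difference of 0.11 (SE 0.19). It was 0.0076 without APPSw 2 and 0.0034 without Control 1. Herpud1, an ER membrane protein of the degradation pathway, had signals of 3084 and 3727 in APPSw mice, against 3864 and 4041 in Control mice. Herpud1 was the only 1 of the 4 regulators whose groups did not overlap, against 41.2% of all probe sets tested. Its difference was -0.22 (SE 0.19, adjusted p = 0.75 by limma), and -0.08 without APPSw 1.

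Promoter sequences were searched because ER chaperones are known to share an ER stress element. RefSeq windows (GRCm38.p6) from 250 bases before to 50 bases after a gene's start were matched for 68 of the 77 genes. The element was searched on both strands as CCAAT, any 9 bases and CCACG, and was found for 6 of the 68 genes (8.82%), Calr, Canx, Dnajc3, Hsp90b1, Hspa5 and Pdia6, against 0.137% of 27025 genes and 0.119% of all 32851 windows. Its matches are shown 5′ to 3′ in the direction of the motif, with the fixed letters in capitals.
Hspa5, chr2:34772025-34772043, plus strand: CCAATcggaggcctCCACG
Hsp90b1, chr10:86705638-86705656, minus strand: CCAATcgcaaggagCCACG
Hsp90b1, chr10:86705533-86705551, plus strand: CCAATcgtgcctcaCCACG
Pdia6, chr12:17266491-17266509, plus strand: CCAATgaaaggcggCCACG
Canx, chr11:50325800-50325818, minus strand: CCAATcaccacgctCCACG
Calr, chr8:84847075-84847093, plus strand: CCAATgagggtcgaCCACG
Dnajc3, chr14:118937827-118937845, plus strand: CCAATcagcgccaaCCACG

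The window of Hspa5, chr2:34771840-34772139 on the plus strand, is shown whole with its match in capitals, since it holds the element close to the gene's start.
Hspa5: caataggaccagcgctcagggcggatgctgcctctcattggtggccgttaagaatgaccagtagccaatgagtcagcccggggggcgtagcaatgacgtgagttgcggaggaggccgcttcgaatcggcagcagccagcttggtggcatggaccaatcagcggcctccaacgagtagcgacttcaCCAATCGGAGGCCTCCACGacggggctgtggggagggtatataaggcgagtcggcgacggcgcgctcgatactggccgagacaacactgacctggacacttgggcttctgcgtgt

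Of the 6 genes with the element, 5 were tested by their brightest probe set. These had a median log2 difference of -0.07, from -0.28 for Pdia6 to -0.01 for Hspa5. All 5 of 5 lay below 0, against 47.3% of all probe sets tested. This count depended on the arrays and probe sets used: without APPSw 1 Hspa5 and Canx were each at 0.10, and without APPSw 2 Dnajc3 was at 0.15. With its probe sets averaged Dnajc3 was at 0.36. The 54 tested genes whose windows lack these letters had a median of -0.06, with 33 below 0 and 21 above. A match describes the letters only.

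The wider list of ER stress targets had 23 tested genes, with a median of -0.14, beside 0.02 over all probe sets tested. Of the 23, 19 were below 0 and 4 above, against 47.3% and 52.7% of all probe sets tested. The APPSw arrays were both below the Control arrays for 8 of them (34.8%, against 19.0% of all probe sets tested) and both above for 3 (13.0%, against 22.2%). Of the 13 that are among the chaperones here, 12 were below 0, and of the other 10, 7 were. The median was -0.14 on APPSw 1 and -0.08 on APPSw 2, and -0.063 without Control 2. No gene of the list passed limma's adjusted threshold, and 0 had an unadjusted p under 0.05, against 8.05% of all probe sets tested.

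The ER sensor Atf6, which is cleaved in the Golgi to release a transcription factor, had the smallest p among sensors and co-chaperones outside the chaperone families. Atf6 had signals of 1420.1 and 1722 in APPSw mice, against 2038 and 2339 in Control mice, a log2 difference of -0.48 (SE 0.19, adjusted p = 0.61 by limma). Atf3, a stress-induced factor, had 952 and 886 in APPSw mice, against 643 and 757 in Control mice, a difference of 0.40 (SE 0.18). Of its 3 probe sets this was the only 1 that passed the filter. It has a letter in its suffix, a kind of probe set described below. Pfdn5, a subunit of prefoldin, which delivers actin and tubulin to the chaperonin, had 1499 and 1353 in APPSw mice, against 1155 and 1008 in Control mice, also a difference of 0.40 (SE 0.18). By these tested probe sets, the arrays of the groups did not overlap for any of the 3 genes, but they were named for the smallest p of their list. Of the 73 genes of that list 46 were tested, with a median of -0.03 and 0 past limma's adjusted threshold. There were 27 below 0 and 19 above, against 47.3% and 52.7% of all probe sets tested. For 9 of the 46 the APPSw arrays were both lower than the Control arrays (19.6%, against 19.0% of all probe sets tested). For 7 they were both higher (15.2%, against 22.2%).

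The mitochondrial chaperonin, which folds imported proteins, had 3 tested probe sets. Hspd1, Hsp60, had signals of 15321 and 20200 in APPSw mice, against 21392 and 24254 in Control mice, a log2 difference of -0.37 (SE 0.21, adjusted p = 0.64 by limma), and -0.17 without APPSw 1. A second Hspd1 probe set pointed the other way, at 0.89 (SE 0.45), with signals of 1414 and 1202 in APPSw mice, against 436 and 1130.4 in Control mice. Both probe sets had non-overlapping groups, in opposite directions, and their mean was 0.26. Hspe1, its Hsp10 lid, had signals of 7858 and 9586 in APPSw mice, against 9269 and 7529 in Control mice. The groups overlapped, and the difference of 0.06 (SE 0.21) was -0.09 without APPSw 2 and also -0.09 without Control 2. Hspa9, the mitochondrial Hsp70, had signals of 7892 and 6715 in APPSw mice, against 9738 and 8322 in Control mice, a difference of -0.31 (SE 0.19).

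Heat shock elements were searched on both strands as GAA, any 2 bases, TTC, any 2 bases and GAA, and were found in the windows of 4 of the 68 genes (5.88%), Dnajb6, Hspd1, Hspe1 and Hsph1, against 0.662% of 27025 genes and 0.603% of all 32851 windows. No gene had both elements. Hspd1 and Hspe1 lie head to head and 285 bases of their windows are the same, so their matches are the same letters. The 2 matches there overlap each other. The capitals below mark the fixed letters of each match.
Hsph1, chr5:149636288-149636300, plus strand: GAActTTCcaGAA
Hspd1 and Hspe1, chr1:55088064-55088076, plus strand: GAAccTTCcgGAA
Hspd1 and Hspe1, chr1:55088059-55088071, minus strand: GAAggTTCtaGAA
Dnajb6, chr5:29735852-29735864, plus strand: GAAtcTTCcgGAA

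The shared window is shown whole for Hspe1, chr1:55087898-55088197 on the plus strand, because 2 chaperonin genes start from it, with the overlapping matches in capitals. The window of Hsph1, chr5:149636287-149636586 on the minus strand, is shown as that of the gene of the 4 with the closest replicates.
Hspe1: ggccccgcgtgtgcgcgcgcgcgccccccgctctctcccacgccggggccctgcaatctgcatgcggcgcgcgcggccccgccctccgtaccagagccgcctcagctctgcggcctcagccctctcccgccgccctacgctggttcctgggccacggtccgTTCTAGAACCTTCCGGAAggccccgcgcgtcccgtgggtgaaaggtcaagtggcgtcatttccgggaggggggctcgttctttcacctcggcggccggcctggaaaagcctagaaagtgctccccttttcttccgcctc
Hsph1: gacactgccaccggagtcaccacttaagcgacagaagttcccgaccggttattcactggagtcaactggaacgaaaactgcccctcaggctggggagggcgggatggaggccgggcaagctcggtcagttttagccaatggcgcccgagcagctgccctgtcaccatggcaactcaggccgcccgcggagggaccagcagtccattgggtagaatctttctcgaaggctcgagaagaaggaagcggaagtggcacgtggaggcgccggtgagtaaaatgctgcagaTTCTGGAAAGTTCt

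By their brightest probe sets the 4 genes had a median log2 difference of -0.25, from -0.43 for Hsph1 to 0.06 for Hspe1. Both APPSw arrays lay below both Control arrays for 2 of the 4, against 19.0% of all probe sets tested. They lay above both for 0 of the 4, against 22.2%. With the probe sets of each gene averaged the median was -0.02, since Hspd1 changed sign. The 55 tested genes without these letters had a median of -0.06, with 35 below 0 and 20 above. Among them were the inducible genes Hspa1a, Hspa1b and Dnajb1, whose windows do not hold this exact pattern. Other forms of the element were not searched, so the 55 are not a group shown to lack one. Hspa8, Hspa9, Hsp90aa1 and Cryab were among the 9 genes with no window here.

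The list of HSF1 targets had 19 tested genes, with a median of -0.08. Of these, 12 were below 0 and 7 above, against 47.3% and 52.7% of all probe sets tested. Without APPSw 1 the median was -0.025. For 6 the APPSw arrays were both lower than the Control arrays (31.6%, against 19.0% of all probe sets tested), and for 2 both higher (10.5%, against 22.2%). The 13 genes that are among the chaperones here had 8 below 0, and the other 6 had 4. At an unadjusted p under 0.05 limma gave 2 of the 19, both lower, or 10.5%, against 8.05% of all probe sets tested, and 0 passed the adjusted threshold. Bag3, a co-chaperone of Hsp70 in selective autophagy, had signals of 917 and 472 in APPSw mice, against 858 and 1051 in Control mice, a log2 difference of -0.53 (SE 0.34) with overlapping groups.

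The cytosolic chaperonin, also called CCT or TRiC, folds actin and tubulin inside a double ring of different subunits. Its 12 tested probe sets of 9 genes did not move one way, with a median of -0.03. There were 5 above 0 and 7 below 0, against 52.7% and 47.3% of all probe sets tested. The groups did not overlap for 7, against 41.2% of all probe sets tested. The APPSw arrays were higher for 4 (33.3%, against 22.2% of all probe sets tested) and lower for 3 (25.0%, against 19.0%). The median was -0.11 on APPSw 1 and 0.14 on APPSw 2, on opposite sides of the Control mean.

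Cct2, the beta subunit, had signals of 1768 and 2476 in APPSw mice, against 1700.1 and 1294 in Control mice, a log2 difference of 0.50 (SE 0.25, adjusted p = 0.62 by limma). APPSw 1 lay only slightly above Control 1, and the difference was 0.25 without APPSw 2 and 0.30 without Control 2. Cct7, the eta subunit, had signals of 12638 and 16554 in APPSw mice, against 10495 and 12111 in Control mice, a difference of 0.36 (SE 0.21). Cct5, the epsilon subunit, had signals of 14067 and 13609 in APPSw mice, against 16949 and 15024 in Control mice, a difference of -0.21 (SE 0.17), and -0.12 without Control 1. Its other probe set gave -0.13 (SE 0.37).

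Cct3, the gamma subunit, had 3 probe sets that did not share a direction. The brightest had signals of 5327 and 5879 in APPSw mice, against 5269 and 6183 in Control mice, a log2 difference of -0.03 (SE 0.18), and 0.04 without APPSw 1 and 0.09 without Control 2. The others gave -0.39 (SE 0.17) and 0.39 (SE 0.18), each with groups that did not overlap. Cct8, the theta subunit, had a difference of -0.23 (SE 0.18) and Cct6a, a zeta subunit, 0.26 (SE 0.17), both without overlap. Cct4, the delta subunit, had -0.03 (SE 0.28), Cct6b, the testis zeta subunit, -0.06 (SE 0.18), and Tcp1, the alpha subunit, 0.15 (SE 0.19), all with overlap.

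J-domain proteins, also called Hsp40, stimulate the ATPase of Hsp70 and bring it clients. This was the largest family, with 30 tested probe sets of 25 genes and a median of -0.05. Its 17 below 0 and 13 above compare with 47.3% and 52.7% of all probe sets tested. Its groups overlapped for 21. The APPSw arrays were both higher for 5 (16.7%, against 22.2% of all probe sets tested) and both lower for 4 (13.3%, against 19.0%). Its arrays' medians were 0.01 and 0.03 in APPSw mice and 0.02 and -0.02 in Control mice.

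Dnaja1, a main cytosolic partner of Hspa8, had signals of 25201 and 30909 in APPSw mice, against 27372 and 26104 in Control mice. The groups overlapped, with a log2 difference of 0.06 (SE 0.19) that was -0.08 without APPSw 2. Dnajb1, the heat-inducible Hsp40, had signals of 2999 and 3081 in APPSw mice, against 3254 and 4077 in Control mice, a difference of -0.26 (SE 0.19) without overlap. Dnajb6, a suppressor of polyglutamine aggregation, had 16901 and 16516 in APPSw mice, against 19646 and 16754 in Control mice, by its brighter probe set. Its probe sets gave -0.12 (SE 0.18) and -0.08 (SE 0.19).

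Dnajc13, an endosomal J-domain protein, had signals of 1619.9 and 1873 in APPSw mice, against 1214 and 1472 in Control mice, a log2 difference of 0.38 (SE 0.19, adjusted p = 0.62 by limma), and 0.24 without Control 1. Dnajc8, a nuclear J-domain protein linked to splicing, had signals of 18072 and 18748 in APPSw mice, against 15754 and 13019 in Control mice. Its 2 probe sets gave 0.36 (SE 0.19) and 0.29 (SE 0.21), and both APPSw arrays lay above both Control arrays for each. Dnajc5, the synaptic vesicle chaperone cysteine string protein, had signals of 4256 and 3671 in APPSw mice, against 2932 and 3912 in Control mice, a difference of 0.22 (SE 0.22) with overlap.

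The J-domain proteins of the ER did not share a direction. Dnajb11, a co-chaperone of BiP, had signals of 1181 and 1234 in APPSw mice, against 1576 and 1363 in Control mice, a log2 difference of -0.28 (SE 0.18) without overlap. Dnajb9, another BiP partner, gave -0.14 (SE 0.34) and -0.33 (SE 0.43) by its probe sets, both with overlap. Dnajc10, a disulfide reductase, gave 0.17 (SE 0.18), also with overlap.

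Dnajc3, the inhibitor of eIF2-alpha kinases also called p58IPK, differed by probe set more than any other chaperone gene but Hspd1 among those with several tested probe sets. Its brightest probe set had signals of 2597 and 1899.9 in APPSw mice, against 2364 and 2314 in Control mice, a log2 difference of -0.07 (SE 0.21), and 0.15 without APPSw 2. The other tested probe set had 1353 and 1345 in APPSw mice, against 605 and 996 in Control mice, a difference of 0.80 (SE 0.27, adjusted p = 0.60 by limma). The 2 below the filter gave 1.19 and 1.57 and were not tested. All 3 dimmer probe sets had both APPSw arrays above both Control arrays, and the mean of the tested ones was 0.36.

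Dnajc11, a mitochondrial membrane J-domain protein, had the widest gap between APPSw replicates among the family's tested probe sets. Its signals were 442 and 2399 in APPSw mice, against 1248 and 1219 in Control mice, a log2 difference of -0.26 (SE 0.74). The other tested members, Dnaja2, Dnaja3, Dnajb2, Dnajb4, Dnajb5, Dnajb13, Dnajc1, Dnajc2, Dnajc4, Dnajc7, Dnajc9, Dnajc15, Dnajc17 and Dnajc21, lay between -0.27 for Dnajb2 and 0.40 for Dnajc1.

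The small heat shock proteins hold unfolded chains without ATP. Of 8 probe sets 4 were tested, with a median of 0.14. There were 3 of the 4 above 0, against 52.7% of all probe sets tested. None had groups without overlap, against 41.2% of all probe sets tested. The median was -0.03 without APPSw 1. Cryab, alpha B-crystallin, which oligodendrocytes and astrocytes express, had signals of 1778 and 1234 in APPSw mice, against 1242 and 1277 in Control mice. The log2 difference of 0.23 (SE 0.23) was -0.03 without APPSw 1, and a dim second probe set was not tested. Summed oligodendrocyte markers were 94499 and 78271 in APPSw mice, against 96856 and 102701 in Control mice, and summed astrocyte markers 62594 and 58837 in APPSw mice, against 58910.2 and 58493 in Control mice. Their part in the Cryab value was not tested.

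Hspb8, a partner of Bag3, had signals of 3338 and 2203 in APPSw mice, against 2051 and 2974 in Control mice. The difference of 0.14 (SE 0.29) was -0.16 without APPSw 1 and -0.13 without Control 1. Hspb2, a muscle-enriched gene next to Cryab, had signals of 1581 and 2507 in APPSw mice, against 2089 and 1541 in Control mice. The difference of 0.15 (SE 0.29) was -0.18 without APPSw 2 and -0.07 without Control 2. Hspb1, Hsp27, was below the filter and not tested, with signals of 379.8 and 359 in APPSw mice, against 198 and 126 in Control mice. Neither APPSw array overlapped the Control arrays, and the log2 difference was 1.23. Hspb11, whose product works in intraflagellar transport, had -0.01 (SE 0.23).

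FK506-binding proteins are peptidyl-prolyl isomerases, some of which serve Hsp90. The 9 tested probe sets of 8 genes had a median of -0.09. Of the 9, 6 were below 0 and 3 above, against 47.3% and 52.7% of all probe sets tested. The APPSw arrays were both lower for 3 (33.3%, against 19.0% of all probe sets tested) and both higher for 2 (22.2%, against 22.2%). Fkbp1a, FKBP12, which binds calcium release channels and, with FK506, calcineurin, had the smallest p of the chaperones. It had signals of 38476 and 39263 in APPSw mice, against 58202 and 56934 in Control mice. The lowest Control array was 1.45-fold above the highest APPSw array. The log2 difference was -0.57 (SE 0.17, adjusted p = 0.60 by limma), and it stayed between -0.58 and -0.55 with any array left out.

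Fkbp8, an anchored isomerase of mitochondria, had signals of 18645 and 19775 in APPSw mice, against 22556 and 24016 in Control mice, a log2 difference of -0.28 (SE 0.17, adjusted p = 0.66 by limma). Fkbp4 and Fkbp5, the isomerases that ride on Hsp90 in steroid receptor complexes, had -0.13 (SE 0.18) and -0.09 (SE 0.21). The Fkbp4 value is that of its brighter probe set, and the other gave -0.25 (SE 0.21). Fkbp9, of the ER, had 2809.9 and 2366 in APPSw mice, against 2344 and 1817 in Control mice, a difference of 0.32 (SE 0.21) without overlap. Fkbp1b, Fkbp2 and Fkbp3 lay between -0.06 and 0.10.

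The 21 probe sets below the filter had signals of 16.4 to 859 in APPSw mice and 15.7 to 709 in Control mice, and left 9 genes with no tested probe set. Groups overlapped for 12, and the APPSw arrays were both higher for 6 and both lower for 3. The shares over all probe sets cover only those that passed the filter, so these counts have no background and no lean is read from them. Of the 12 genes with more than 1 tested probe set, 7 had all of them on the same side of 0, and Cct3, Dnajc3, Hspa4, Hspd1 and Pdia6 did not.

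**Figure D4:**
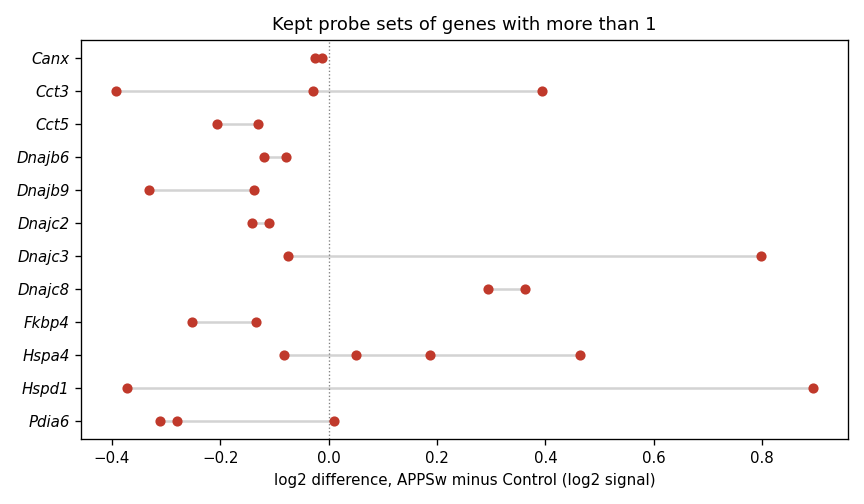
Log2 differences, APPSw minus Control, of each tested probe set for the 12 chaperone genes with more than 1, joined by a line per gene. The widest lines are those of Hspd1, from -0.37 to 0.89, and Dnajc3, from -0.07 to 0.80.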

How the data were processed

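For each array the authors deposited 1 linear intensity per probe set, computed with MAS 5.0 at a target of 2500, per the labels. Background settings were not given in the sources used here. The 2 arrays per group limit the precision. The labels do not say that these came from separate mice, so a p-value reflects the variation among these arrays, part of which may be technical.

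Probe sets were named from the platform annotation where it gives 1 symbol (10833; 396 have several and 1193 none), and all 105 chaperone identifiers were found in the RefSeq table (GRCm38.p6). 2 probe sets paired with several symbols, among them a J-domain gene, were not used. Log2 signals went into limma 3.58.1 (R 4.3.3; linear model with empirical Bayes, two-sided) over the 7453 probe sets at or above the 40th percentile of mean log2 signal, without further normalization. The fit was tested on simulated data, with seeded changes larger than any tested chaperone difference. It was not tested for differences of the size given here. Lists are described by counts and medians with no list test, each gene by its brightest kept probe set. Members and lists were chosen with earlier results of these data known. The naming rule took 16 genes in any case, the brightest gene and the 2 with the smallest p of each family, and 3 genes outside the families. It gave 33 genes with a probe set. Alternatives were quantile normalization, no filter, a 60th percentile filter, a floor of 250, a pseudocount of 250, a replicate block, an intensity trend, averaged probe sets and each array left out. Descriptions by protein ending were planned and not run, as no protein sequences were used here.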

Additional observations from a re-analysis of the deposited data

How the results depend on the processing

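No probe set, chaperone or other, passed the adjusted threshold under any alternative run, so the count of calls was 0 throughout, also with the replicate block (0 called). The replicate numbers are not known to pair mice, and the replicate differences of the 2 groups had a correlation of -0.02 over all kept probe sets. Medians that moved by more than the spread between arrays were as follows. After averaging a gene's probe sets, Hsp70 and Hsp110 had a median log2 difference of -0.28, J-domain proteins -0.00062 and genes with a heat shock element -0.022. With plain-suffix probe sets alone, an alternative chosen after seeing the data, Hsp70 and Hsp110 had -0.25, the mitochondrial chaperonin -0.16 and J-domain proteins -0.072. With the 60th percentile filter the mitochondrial chaperonin had -0.16, the cytosolic chaperonin 0.062 and J-domain proteins -0.066. Quantile normalization gave 0.056 for Hsp90 and -0.077 for J-domain proteins, and no filter 0.19 for Hsp90. The cause was not tested. The filters, the suffix rule and the averaging changed which values entered a median. Quantile normalization kept the count at 2 probe sets for Hsp90 and 30 for J-domain proteins.

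With 1 array left out, which assumes that the lone array of its group varies like the other group, the median ranged from -0.094 to 0.010 over all chaperones and from -0.028 to 0.24 for small heat shock proteins. It ranged from -0.11 to 0.17 for the cytosolic chaperonin, -0.0061 to 0.034 for J-domain proteins, -0.27 to -0.077 for protein disulfide isomerases and -0.12 to -0.041 for FK506-binding proteins. It ranged from -0.14 to -0.063 for ER stress targets and -0.27 to -0.15 for genes with a heat shock element. It ranged from -0.19 to 0.025 for Hsp70 and Hsp110, -0.095 to 0.21 for the mitochondrial chaperonin, -0.053 to 0.014 for lectin chaperones, -0.12 to -0.0012 for the regulators of the unfolded protein response and -0.097 to -0.025 for HSF1 targets. For the sensors and co-chaperones outside the families it ranged from -0.042 to -0.013. Named genes that changed sign with an array left out had these ranges: Hspa5 -0.12 to 0.10, Hspa8 -0.14 to 0.058, Hspa1a -0.48 to 0.33, Cryab -0.029 to 0.50, Canx -0.13 to 0.10, Xbp1 -0.25 to 0.049 and Atf4 -0.059 to 0.037. The others were Hspb8 -0.16 to 0.43, Hspb2 -0.18 to 0.48, Hspe1 -0.095 to 0.21, Cct3 -0.14 to 0.087, Dnaja1 -0.085 to 0.21 and Dnajc3 -0.30 to 0.15. Quantile normalization turned Hspa5 to 0.013 and Atf4 to 0.020, and averaged probe sets turned Hspd1 to 0.26 and Dnajc3 to 0.36. The remaining named genes kept their sign under every alternative run.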

Other observations

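Among the kept chaperone probe sets, the direction differed by the kind of probe set. The 68 whose identifier ends in a plain suffix had a median log2 difference of -0.07, with 46 below 0 and 22 above. The 16 with a letter in the suffix, which marks probes shared with other sequences or chosen under relaxed rules, had a median of 0.11, with 6 below 0 and 10 above. The same held over the whole array, where the median was -0.00091 over 6060 plain probe sets and 0.11 over 1393 lettered ones, with 906 of these above 0 and 487 below. The tested Dnajc3 and Hspd1 probe sets with higher signals in APPSw mice, 1 of each gene, are lettered, and the probe sets of the same genes with lower signals are plain. Cct3 likewise had its lowest difference, -0.39, by a plain probe set and its highest, 0.39, by a lettered one. Hspa4 and Pdia6 went the other way. Their lowest differences, -0.08 and -0.31, came from lettered probe sets and their highest, 0.46 and 0.0093, from plain ones. No explanation was tested.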
